A study of Mus musculus with 8 samples.

Results

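The 10 genes described here encode heat shock chaperones and their direct partners of the cytosol and the mitochondrion: Hspa1a, Hspa1b, Hspa8, Hsph1, Bag3, Dnajb1, Hsp90aa1, Hspb1, Hspd1 and Hspe1. They were chosen by name, with earlier results of these data known. Their symbols were matched to the Ensembl gene identifiers of the count table through an annotation of mouse build mm10. All 10 were found among the 52636 identifiers of the table, and all 10 passed the filter on low counts, which left 16107 genes to be tested. HSP70 proteins hold exposed hydrophobic stretches of unfolded proteins in cycles of ATP hydrolysis. J-domain proteins such as DNAJB1 start this cycle, and nucleotide exchange factors such as HSPH1 and BAG3 end it by releasing ADP. HSP90 finishes the folding of kinases and steroid receptors, the small chaperone HSPB1 keeps aggregating proteins soluble, and HSPD1 with its lid HSPE1 folds proteins inside mitochondria. Under heat, oxidation or inflammation the transcription factor HSF1 binds repeats of the unit GAA and its complement TTC in front of many of these genes.

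Bulk RNA sequencing measured colon of germ-free wild-type C57BL/6 female mice, aged 6 weeks and kept in gnotobiotic isolators. The groups were mice given Candida albicans strain SC5314 by gavage (3 libraries), mice given Candida tropicalis strain MYA-3404 in the same way (2 libraries) and control mice (3 libraries), all taken at day 30. Replicates carry a number and a letter code that the labels do not explain, with nothing on whether different mice gave them, and the p-values therefore reflect variation among libraries that could be partly technical. Total counts ran between 16195376 and 19761098 per library, and levels are given as CPM (counts scaled by library size). The 10 genes together took 0.372% to 0.552% of all counts in the C. albicans libraries, 0.523% and 0.430% in the C. tropicalis libraries, and 0.186% to 0.222% in the control libraries. All 13 colon epithelium markers were detected, with summed levels of 21680 to 26350 CPM in the C. albicans libraries, 26240 and 22930 CPM in the C. tropicalis libraries, and 18490 to 20990 CPM in the control libraries. The sums hide markers that went opposite ways. Cdx2 was at 224.4 to 470.1 CPM with C. albicans, 26.33 and 28.56 with C. tropicalis, and 26.94 to 339.5 in control. Car1 was at 179.5 to 431.6 CPM with C. albicans, 2231 and 2255 with C. tropicalis, and 242.8 to 1602 in control.

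The sequences in front of these genes are shown because HSF1 units are what several of them are known to share. A RefSeq table on build GRCm38.p6 held 8 of the 10 genes, without Hspa8 and Hsp90aa1. The 250 bases before each start were searched on both strands for a pair of facing units, GAANNTTC or TTCNNGAA, each of which is its own reverse complement, and matches were allowed to overlap. A pair stood before 6 of the 8 genes (Hspa1a, Hspa1b, Hsph1, Hspb1, Hspd1 and Hspe1). Some genes have more than 1 start: by window, a pair stood in 7 of the 11 windows of these 8 genes, against 12.8% of all 32851 windows and 10.2% of the 15149 windows of genes tested. The 7 windows are not independent. Both Hsph1 windows hold the same bases, Hspd1 and Hspe1 share a stretch, and Hspa1a and Hspa1b are near copies. No pair was found in these windows of Dnajb1 and Bag3. Capitals mark the units below, and all sequences run 5′ to 3′ on the strand of the gene. The whole 250 bases are given for Hspa1a (chr17:34972157-34972406, minus strand) and Hspa1b (chr17:34959239-34959488, minus strand), because they differ at only 3 positions and hold the same pair at the same place. For Hspb1 (chr5:135887782-135887849, plus strand), Hsph1 (chr5:149636351-149636380, minus strand) and Hspe1 (chr1:55088053-55088082, plus strand) the pairs and their flanks are given.
Hspa1a: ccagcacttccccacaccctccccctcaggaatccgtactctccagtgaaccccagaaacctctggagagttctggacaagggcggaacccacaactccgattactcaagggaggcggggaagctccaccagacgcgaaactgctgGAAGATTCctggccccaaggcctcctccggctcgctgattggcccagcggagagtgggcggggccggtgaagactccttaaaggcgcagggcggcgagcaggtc
Hspa1b: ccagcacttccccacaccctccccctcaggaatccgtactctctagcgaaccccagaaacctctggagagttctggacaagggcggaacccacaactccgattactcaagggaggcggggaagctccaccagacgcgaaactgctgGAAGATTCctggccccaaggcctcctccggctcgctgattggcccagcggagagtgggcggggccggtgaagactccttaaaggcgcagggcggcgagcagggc
Hspb1: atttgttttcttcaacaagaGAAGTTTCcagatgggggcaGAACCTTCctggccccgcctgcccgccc
Hsph1: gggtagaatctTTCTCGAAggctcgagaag
Hspe1: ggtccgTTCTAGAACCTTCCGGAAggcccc
The Hspe1 stretch holds 4 units in a row and lies before an annotated start of Hspe1 on one strand and of Hspd1 on the other, so that the same bases count for both genes. It overlaps 1 annotated exon, and the Hsph1 stretch overlaps 2, while the other stretches overlap 0. A run of at least 3 units stood before these 2 genes and in 0.466% of all windows. A match of letters is a description and does not show that a factor binds there.

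With C. albicans, Hspa1a, Hspa1b, Hsph1 and Hspa8 had the largest estimates over control, and the mitochondrial pair the smallest with either yeast. In the C. albicans comparison, 6 of the 10 genes (Hspa1a, Hspa1b, Hspa8, Hsph1, Bag3 and Dnajb1) were higher in every library than in every control library, against 9.82% of the 16107 genes tested. The same 6 were higher at an unadjusted p under 0.05, against 9.13% of genes that were higher. After Benjamini-Hochberg adjustment over all genes in edgeR's quasi-likelihood test, 1 of the 10, Hsph1, passed 0.05, against 0.0435% of genes (7 genes). With C. tropicalis, 7 of the 10 were higher than every control library (those 6 and Hsp90aa1), against 16% of genes. The same 6 were higher at an unadjusted p under 0.05, against 7.33% of genes that were higher, and Hspb1 was lower (unadjusted p = 0.002). Of the 10, 1, Hspa8, passed after adjustment, against 0.031% (5 genes). The median log2 fold change of the 10 genes was 0.90 for C. albicans and 1.08 for C. tropicalis, beside -0.02 over all genes for each. Both comparisons use the same control libraries. The 10 genes, and the lists below, were chosen with earlier results of these data known. The shares here and below therefore describe them and are no independent test. Hspa1a and Hspa1b are near copies, so they do not count as independent genes.

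**Figure D1:**
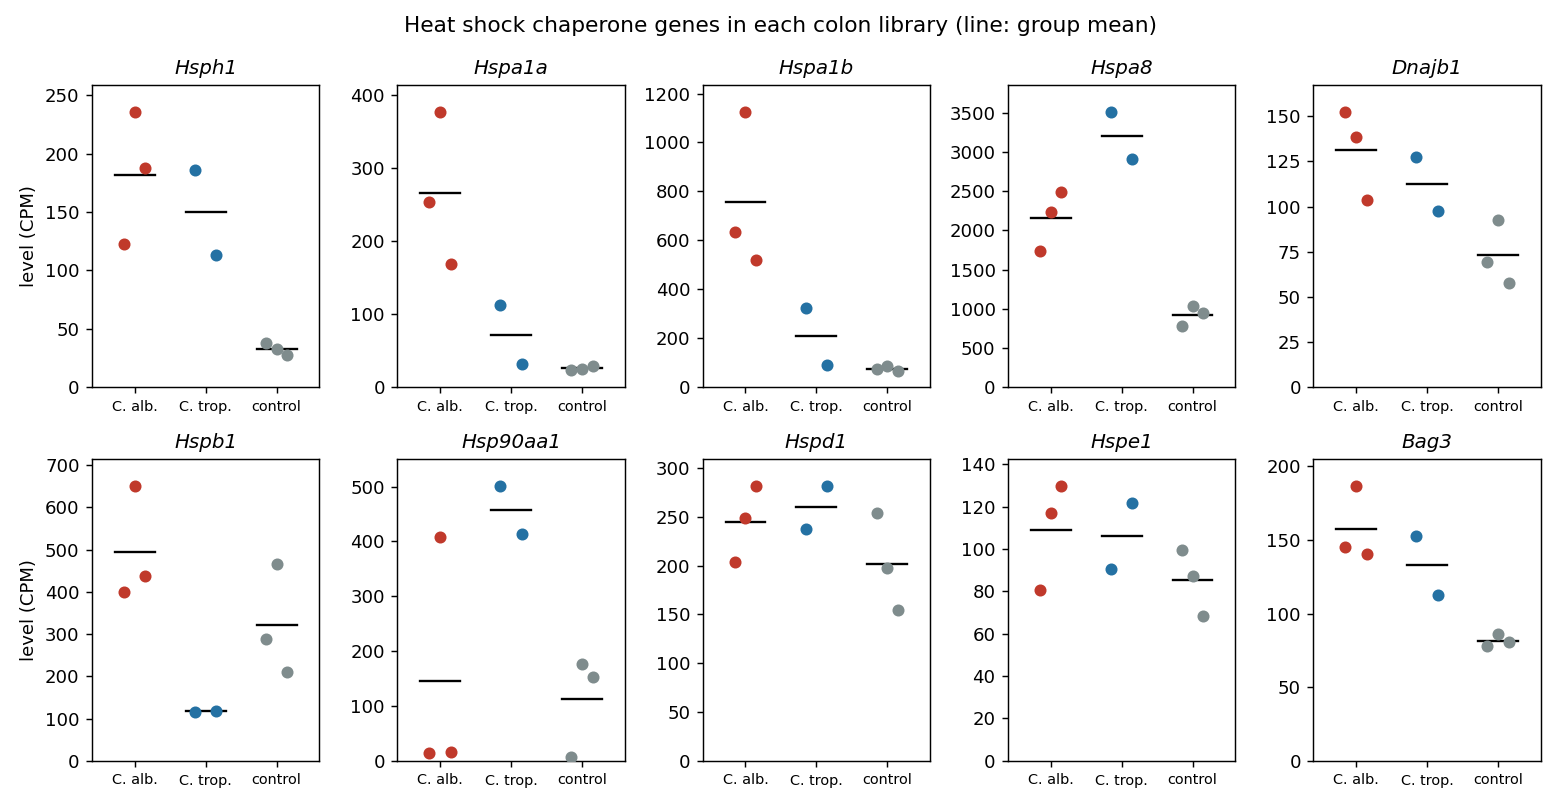
Level (CPM, linear axes that begin at 0) of each of the 10 genes in each library, with C. albicans (3 libraries) on the left, C. tropicalis (2) in the middle and control (3) on the right; the line is the group mean. For Hsph1 all 5 libraries with yeast sit between 113.4 and 235.3 CPM, above the control libraries at 27.54 to 37.58 CPM, while Hsp90aa1 spreads widely within groups.

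Among the HSP70 genes, the inducible pair Hspa1a and Hspa1b had the largest fitted fold changes of the 10 with C. albicans. Hspa1a (chromosome 17, 34969190 to 34972156) was at 253.8, 376.7 and 168.3 CPM in the C. albicans libraries and 113 and 31.16 CPM in the C. tropicalis libraries, against 23.93, 25.38 and 28.61 CPM in the control libraries. Hspa1b (chromosome 17, 34956436 to 34959238) was at 632.4, 1123 and 520 CPM with C. albicans and 324.8 and 90.71 CPM with C. tropicalis, against 75.17, 87.09 and 65.29 CPM in control. For both genes every C. albicans library lay above every C. tropicalis library, and the second C. tropicalis library lay only just above the highest control. The 2 genes share so much sequence (47.1% of all 100-base windows of Hspa1a also occur in Hspa1b) that the split of reads between them is uncertain, and their counts stood at a ratio of 2.28 to 3.43 (Hspa1b over Hspa1a) in every library. Their sum avoids that split and was 886.2, 1499 and 688.3 CPM with C. albicans and 437.8 and 121.9 CPM with C. tropicalis, against 99.1, 112.5 and 93.9 CPM in control. The sum was 10.1-fold higher with C. albicans (log2 3.33 ± 0.47 SE, adjusted p = 0.0735) and 2.75-fold higher with C. tropicalis (log2 1.46 ± 0.47 SE, adjusted p = 0.25) in edgeR, so neither passed. The C. tropicalis value rests on 1 library: it was 0.26 without the first C. tropicalis library and 2.11 without the second. For C. albicans the sum did pass without C. albicans library 1 (adjusted p = 0.0271), without C. tropicalis library 1 (0.0228) and without C. tropicalis library 2 (0.0233).

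Hspa8 (chromosome 9, 40800984 to 40810087), the HSP70 that cells make at all times and that also strips clathrin from vesicles, rose with C. tropicalis. It was at 3507 and 2911 CPM in the C. tropicalis libraries and 1736, 2240 and 2496 CPM in the C. albicans libraries, against 783.2, 1039 and 949.4 CPM in the control libraries. The 3 groups did not overlap, with C. tropicalis highest and control lowest. The rise with C. tropicalis was 3.47-fold (log2 1.80 ± 0.21 SE, adjusted p = 0.0409, edgeR), and the C. albicans estimate was 2.34-fold (log2 1.22 ± 0.19 SE, adjusted p = 0.0711). Of the members' summed CPM, Hspa8 took 39.1% to 55.7% with C. albicans, 65.5% and 67.8% with C. tropicalis and 45.4% to 52.9% in control. Adjusted p for C. tropicalis moved above 0.05 without C. albicans library 2 (0.059) or 3 (0.0961), C. tropicalis library 1 (0.474) or 2 (0.177), or control library 1 (0.143) or 2 (0.147), while the log2 change kept between 1.66 and 1.93. For C. albicans it moved to 0.0235 without C. albicans library 1.

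Of the partners of HSP70, Hsph1 rose with C. albicans, and Bag3 and Dnajb1 lay above control by smaller amounts. Hsph1 (chromosome 5, 149614287 to 149636376), which encodes the HSP110 chaperone that exchanges nucleotide on HSP70 and helps to pull aggregates apart, was at 122.4, 235.3 and 187.9 CPM with C. albicans and 185.8 and 113.4 CPM with C. tropicalis, against 37.58, 32.88 and 27.54 CPM in control. Both yeast groups lay far above control and overlapped each other. The rise was 5.57-fold for C. albicans (log2 2.48 ± 0.28 SE, adjusted p = 0.0227, edgeR), and the C. tropicalis estimate was 4.58-fold (log2 2.20 ± 0.29 SE, adjusted p = 0.0829). The C. albicans adjusted p moved above 0.05 without C. albicans library 3 (0.154) or control library 1 (0.0631), 2 (0.218) or 3 (0.0696), with a log2 change of 2.37 to 2.59. The C. tropicalis adjusted p moved below it without C. albicans library 1 (0.0438) or control library 3 (0.032).

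Bag3 (chromosome 7, 128523616 to 128546981), an exchange factor that steers HSP70 clients to autophagy, was at 145.5, 186.6 and 140.6 CPM with C. albicans and 152.9 and 112.7 CPM with C. tropicalis, against 78.08, 86.14 and 80.45 CPM in control. The control libraries lay within 10 CPM of each other and below all 5 others. The estimates were log2 0.95 ± 0.16 SE for C. albicans (adjusted p = 0.0929, and 0.0418 without C. albicans library 1) and 0.70 ± 0.18 SE for C. tropicalis (adjusted p = 0.187, edgeR). Dnajb1 (chromosome 8, 83608193 to 83612653), the J-domain partner that brings clients to inducible HSP70, was at 152.2, 138.4 and 103.5 CPM with C. albicans and 127.6 and 97.68 CPM with C. tropicalis, against 69.17, 92.69 and 57.54 CPM in control. The gap between the lowest library with yeast and the highest control was small, and the estimates of log2 0.85 ± 0.21 SE for C. albicans and 0.62 ± 0.24 SE for C. tropicalis did not pass (adjusted p = 0.195 and 0.285 in edgeR).

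**Figure D2:**
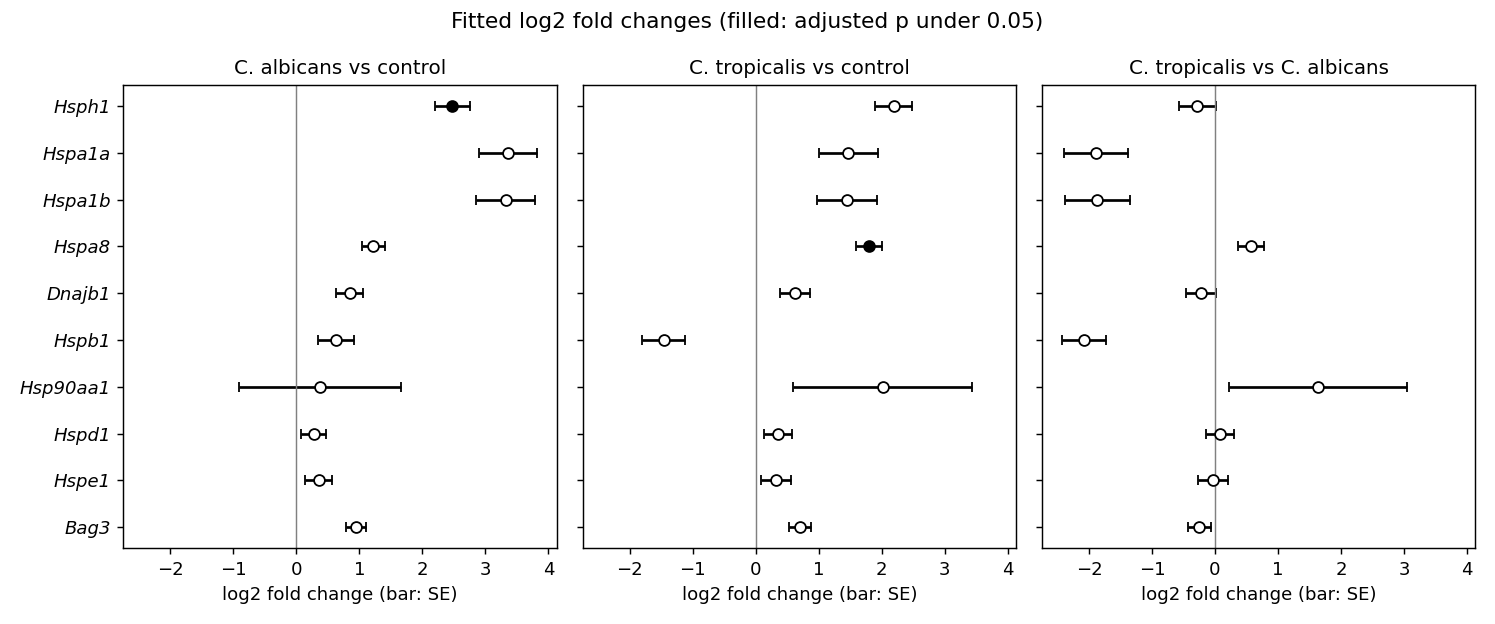
Fitted log2 fold change of each of the 10 genes (point) with its SE (bar) for C. albicans over control, C. tropicalis over control and C. tropicalis over C. albicans. Filled points passed an adjusted p of 0.05: Hsph1 at 2.48 in the first panel and Hspa8 at 1.80 in the second. Hsp90aa1 has the widest bars.

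Hsp90aa1 (chromosome 12, 110690605 to 110702728), the inducible cytosolic HSP90, separated the libraries in a way the groups do not. It was at 13.6, 408.2 and 16.65 CPM with C. albicans and 500.7 and 412.6 CPM with C. tropicalis, against 7.94, 177.2 and 153.7 CPM in control. C. albicans libraries 1 and 3 and control library 1 were at least 9.23-fold below each of the other 5 libraries. The same 3 libraries were low in the mitochondrial ribosomal RNA genes: mt-Rnr2 had 33.39, 1542 and 45.24 CPM with C. albicans and 1015 and 1096 CPM with C. tropicalis, against 37.24, 1324 and 980 CPM in control. Of 14317 genes with a mean of at least 1 CPM, 21 were at least 3-fold lower in each of these 3 libraries than in each of the others and 0 were higher by as much. For this count the 3 libraries were those under 200 CPM in the sum of mt-Rnr1 and mt-Rnr2, so these 2 genes are among the 21 by choice. The widest gaps were those of Gm10275, CT010467.1 and Gm23935. The 21 also include Rpl12, Lars2, Exosc5 and the ribosomal RNA processing genes Rrp1, Rrp1b, Rrp7a, Rrp8, Rrp12, Rrp15 and Rrp36. No other member was among them. What set these libraries apart was not tested.

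Fitted over all libraries, Hsp90aa1 gave log2 0.37 ± 1.28 SE for C. albicans (adjusted p = 0.897) and 2.02 ± 1.42 SE for C. tropicalis (adjusted p = 0.507, edgeR), with the largest SE of the 10 genes. Among the 3 low libraries, the mean of the C. albicans libraries was 1.9 times control library 1. Among the 5 others, C. albicans library 2 was 2.47 times and the C. tropicalis mean 2.76 times the control mean. With the split as a covariate, a choice made after seeing the data, the estimates became log2 1.13 ± 0.17 SE for C. albicans (adjusted p = 0.117) and 1.40 ± 0.19 SE for C. tropicalis (adjusted p = 0.134), and neither passed. Without C. albicans library 2 the C. albicans estimate without that covariate was -2.90, and without control library 1 it was -0.18.

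**Figure D3:**
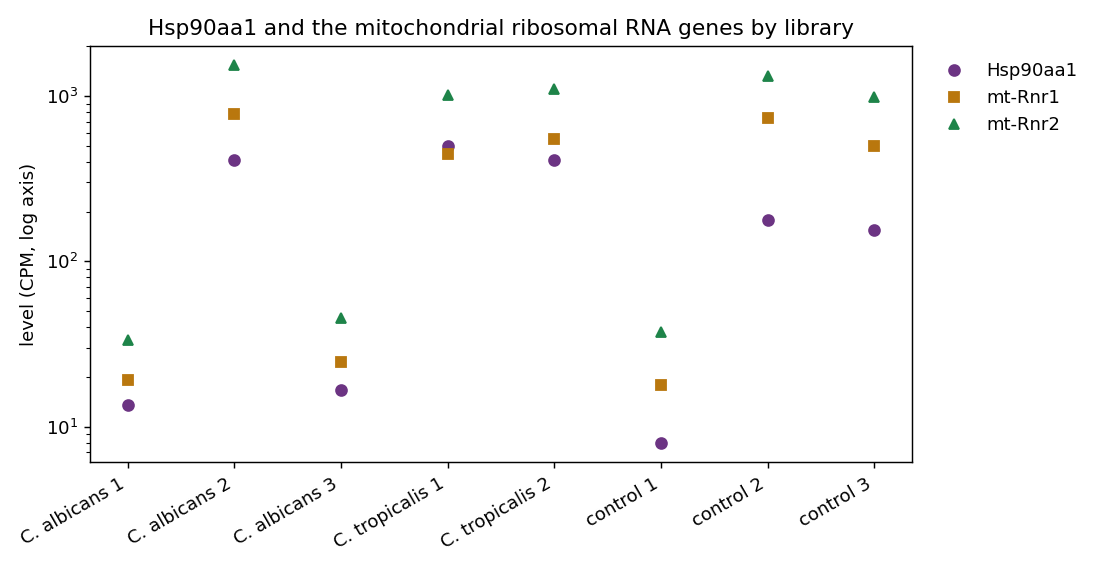
Level (CPM, log axis) of Hsp90aa1 and the mitochondrial ribosomal RNA genes mt-Rnr1 and mt-Rnr2 in each of the 8 libraries. C. albicans 1, C. albicans 3 and control 1 are low in all 3 genes, with Hsp90aa1 at 7.94 to 16.65 CPM there and at 153.7 to 500.7 CPM in the other libraries.

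Hspb1 (chromosome 5, 135887919 to 135889563), the small chaperone HSP27 that also binds actin filaments and is abundant in muscle, was the only one of the 10 below control with C. tropicalis. It was at 115.7 and 118.4 CPM with C. tropicalis and 399.4, 650.3 and 436.5 CPM with C. albicans, against 289.2, 465.2 and 209.6 CPM in control. Both C. tropicalis libraries lay below all others, and the C. albicans range overlapped control. The estimates were log2 -1.46 ± 0.34 SE for C. tropicalis (adjusted p = 0.168, and 0.0402 without control library 3) and 0.63 ± 0.29 SE for C. albicans (adjusted p = 0.335, edgeR). The summed level of 13 smooth muscle markers was also lowest with C. tropicalis, at 4576 and 5866 CPM, and was 11200, 32090 and 18110 CPM with C. albicans, against 15250, 12520 and 7869 CPM in control. None of the 13 was at 0 in all libraries. Enteric neuron and glia markers were also lowest with C. tropicalis, with summed levels of 63.84 and 107.4 CPM there and 159.7, 356.4 and 228.7 CPM with C. albicans, against 199.1, 148.6 and 132.4 CPM in control. All 14 of them had estimates below control with C. tropicalis and above it with C. albicans. In edgeR 0 of the 14 passed (6 had an unadjusted p under 0.05 with C. tropicalis and 3 with C. albicans), and DESeq2 called 0. Over all 16107 genes tested, 1297 were lower with C. tropicalis and 1471 higher with C. albicans at that unadjusted p. The 6 fibroblast markers and the 4 tested adipocyte markers also had estimates below control with C. tropicalis, and 5 of 6 and 2 of 4 lay above it with C. albicans. The part of these cell types in the Hspb1 values was not tested. In bulk tissue, fewer cells of a type and less RNA per cell cannot be told apart. Once a smooth muscle score was added to the fit, the Hspb1 estimates became log2 -0.87 for C. tropicalis and 0.27 for C. albicans. Both C. tropicalis libraries had lower scores than all others, so that fit cannot separate the score from this yeast.

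**Figure D4:**
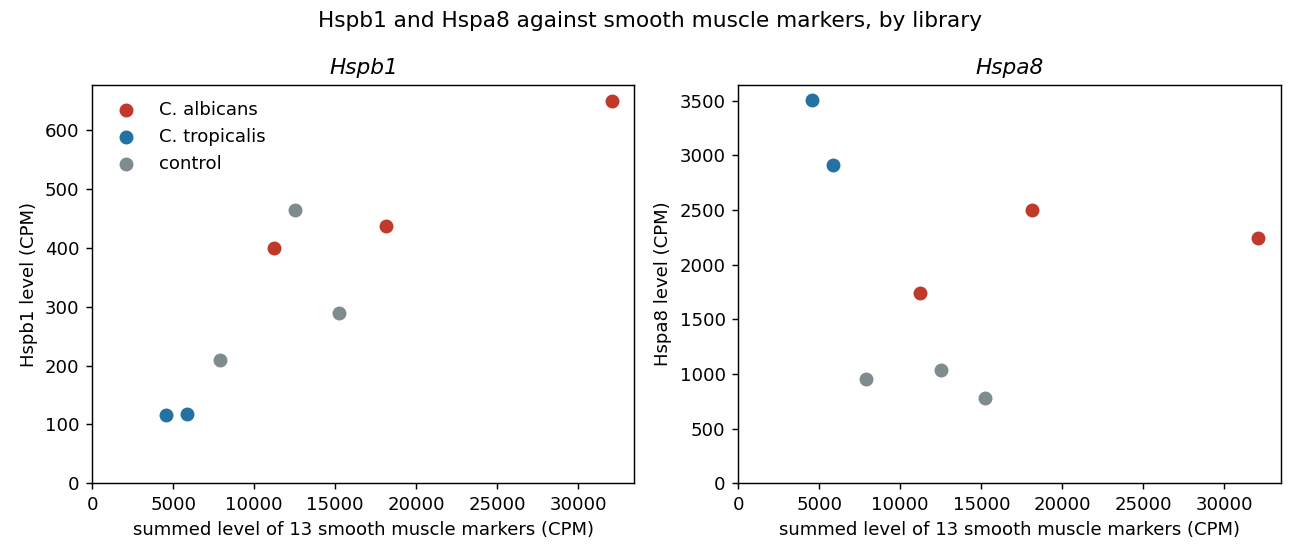
Level of Hspb1 (left) and Hspa8 (right) against the summed level of 13 smooth muscle markers (both in CPM, linear axes that begin at 0), 1 point per library, coloured by group. The C. tropicalis libraries, at 4576 and 5866 CPM of muscle markers, are the lowest in Hspb1 and the highest in Hspa8.

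The mitochondrial chaperonin pair had the smallest estimates. Hspd1 (chromosome 1, 55077835 to 55088243), the HSP60 barrel, was at 204, 248.7 and 281.2 CPM with C. albicans and 237.7 and 281.3 CPM with C. tropicalis, against 253.7, 197.5 and 154.5 CPM in control. Hspe1 (chromosome 1, 55088132 to 55091307), its HSP10 lid, was at 80.44, 116.8 and 129.6 CPM with C. albicans and 90.74 and 121.5 CPM with C. tropicalis, against 99.67, 87.33 and 68.57 CPM in control. For both genes all 3 groups overlapped. The estimates lay between log2 0.28 and 0.36, with SE of 0.20 to 0.24 and adjusted p of 0.434 to 0.533 (edgeR). These 2 genes overlap at their starts on opposite strands, and the library kit did not keep the strand, so reads from the overlap cannot be assigned to either.

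Per kilobase of exon, the control colon held most Hspb1 (mean 311.7 CPM per kb) and Hspa8 (214.8), then Hspd1 (76.4), Hspe1 (57.8), Bag3 (31.8), Hsp90aa1 (28.7), Hspa1b (27.1), Dnajb1 (22.8), Hspa1a (8.75) and Hsph1 (4.50). Neighbours in this order overlapped between control libraries except Hspa8 with Hspd1, Hspe1 with Bag3, Dnajb1 with Hspa1a, and Hspa1a with Hsph1. The place of Hsp90aa1 is uncertain, as its control libraries were at 2.02, 45.08 and 39.1 CPM per kb. Reads shared by Hspa1a and Hspa1b may have been dropped in counting, so the values of both may be too low. Exon length merges all annotated exons of a gene. It can exceed the length of the transcripts present, so the order per kilobase is approximate. With C. albicans the mean of Hspa1b was 270.5 CPM per kb, above Hspd1 at 92.6. With C. tropicalis Hspa8 was at 815.5 and 676.7 CPM per kb and exceeded Hspb1, at 112.2 and 114.8. The summed level of the 10 genes was 3740, 5724 and 4480 CPM with C. albicans and 5356 and 4290 CPM with C. tropicalis, against 1718, 2290 and 1795 CPM in control.

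Set against each other, the 2 yeasts gave no difference that passed for any of the 10 genes. In C. tropicalis against C. albicans, edgeR called 0% of genes, while 23.2% (3744 genes) had an unadjusted p under 0.05 and 45.9% did not overlap between the groups, with 2 libraries against 3. Among the 10, 4 had an unadjusted p under 0.05 (Hspa1a, Hspa1b, Hspa8 and Hspb1), and 5 did not overlap (those 4 and Hsp90aa1). The estimate for the Hspa1a and Hspa1b sum was log2 -1.87 ± 0.51 SE (adjusted p = 0.0828), for Hspb1 -2.08 ± 0.35 SE (adjusted p = 0.0646) and for Hspa8 0.57 ± 0.21 SE (adjusted p = 0.142, edgeR). DESeq2, run as an alternative, called 10.9% of 16025 genes and 3 of the 9 members that had an adjusted p there (Hspa1a, Hspa1b and Hspb1). The Hspb1 adjusted p moved below 0.05 without C. albicans library 1 (0.0181), control library 1 (0.0382) or control library 3 (0.0184). With the smooth muscle covariate, a score that did not overlap between the yeasts, it was 0.767, at a log2 difference of -1.13.

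With both yeasts averaged against control, Hsph1 rose (log2 2.34 ± 0.26 SE, adjusted p = 0.0282) and Hspa8 rose (log2 1.51 ± 0.18 SE, adjusted p = 0.0339, edgeR), against 0.0497% of genes called (8 genes). The same 6 genes as before were higher in all 5 libraries with yeast than in all control libraries, against 3.61% of genes, and were higher at an unadjusted p under 0.05, against 6.25% of genes that were higher. Adjusted p for Hsph1 moved above 0.05 without C. albicans library 3 (0.128), C. tropicalis library 1 (0.118) or 2 (0.0526), or control library 1 (0.0658) or 2 (0.166). For Hspa8 it did so without C. albicans library 2 (0.0847) or 3 (0.128), C. tropicalis library 1 (0.188) or 2 (0.0731), or control library 1 (0.08) or 2 (0.143). DESeq2 gave an adjusted p for 9 of the 10 and called more. It called 6 of the 9 and 2.41% of 12556 genes here, and the same 6 and 3.19% of 14534 genes for C. albicans. For C. tropicalis it called 5 (Hsph1, Hspa1a, Hspa8, Hspb1 and Bag3) and 2.68% of 14534 genes, and Hspb1 was the lower one.

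The wider chaperone network was examined through 9 lists of 92 further genes, of which 88 were tested and 0 passed in edgeR in any comparison. At an unadjusted p under 0.05, 22 were higher and 2 lower with C. albicans, and 30 higher and 4 lower with C. tropicalis, while DESeq2 called 13 and 16. Over all 16107 genes tested, 1471 were higher and 1016 lower with C. albicans, and 1180 higher and 1297 lower with C. tropicalis, at the same unadjusted p. DESeq2 called 3.19% of 14534 genes with C. albicans and 2.68% with C. tropicalis. Of the 14 other HSP90 genes and co-chaperones, 12 lay above control with C. albicans (median log2 0.48) and 11 with C. tropicalis (median 0.68). Of these, Chordc1, an HSP90 partner with zinc-binding domains, was at 47.83, 63.62 and 51.16 CPM with C. albicans and 59.85 and 54.73 CPM with C. tropicalis, against 28.62, 28.89 and 22.75 CPM in control (log2 1.02 ± 0.15 and 1.099 ± 0.16 SE, adjusted p = 0.0711 and 0.104, edgeR). Stip1, which links HSP70 to HSP90, gave log2 0.92 ± 0.17 SE and 1.08 ± 0.19 SE (adjusted p = 0.114 and 0.12). Dnaja1, the J-domain gene with the lowest p, was at 212, 322.7 and 277.9 CPM with C. albicans and 261 and 223.8 CPM with C. tropicalis, against 106.3, 121.9 and 75.83 CPM in control. The median of the 12 J-domain genes was -0.04 with C. albicans and 0.20 with C. tropicalis.

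Endoplasmic reticulum chaperones lay above control for 14 of 15 genes with C. albicans (median log2 0.40) and 15 of 15 with C. tropicalis (median 0.50). Hspa5, the HSP70 of that compartment, was at 472.6, 514 and 689.6 CPM with C. albicans and 651.3 and 605.5 CPM with C. tropicalis, against 269.4, 311 and 255.5 CPM in control (adjusted p = 0.0929 and 0.104). Creld2, which is induced by unfolded protein in that compartment, gave log2 1.14 ± 0.23 SE and 1.12 ± 0.26 SE (adjusted p = 0.133 and 0.165). The 5 tested small heat shock genes all lay above control with C. albicans (median 0.74) and all below it with C. tropicalis (median -0.64). The summed muscle markers given above were likewise lowest with C. tropicalis. Hspb7 and Hspb6, both muscle chaperones, gave log2 -2.16 ± 0.49 SE and -1.73 ± 0.44 SE in C. tropicalis against C. albicans (adjusted p = 0.0669 and 0.074).

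The remaining chaperone lists had medians between -0.14 and 0.28. The median of the 7 other HSP70 and HSP110 genes was 0.20 with C. albicans and -0.03 with C. tropicalis. In that list Hspa4l, a testis-rich HSP110, was at log2 0.80 ± 0.21 SE and 1.45 ± 0.23 SE (adjusted p = 0.203 and 0.108), and Hspa4 at 0.09 ± 0.12 SE and 0.47 ± 0.14 SE. For the other exchange factors and adaptors the medians were 0.15 and 0.10, and St13, which stabilizes HSP70 with its client, was at 0.15 ± 0.11 SE and 0.62 ± 0.12 SE (adjusted p = 0.52 and 0.135). The 8 subunits of the cytosolic chaperonin TRiC had medians of 0.06 and 0.28, with Tcp1 at 0.10 ± 0.11 SE and 0.34 ± 0.12 SE. The 14 other mitochondrial chaperones and proteases had medians of -0.14 and 0.01. Their lowest p values belonged to Hscb, a J-domain protein of iron-sulfur cluster assembly, at -0.35 ± 0.17 SE and -0.55 ± 0.20 SE, and Grpel2, an exchange factor of mitochondrial HSP70, at -0.37 ± 0.15 SE and -0.15 ± 0.17 SE. In each of these pairs the first value is for C. albicans and the second for C. tropicalis, each over control.

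**Figure D5:**
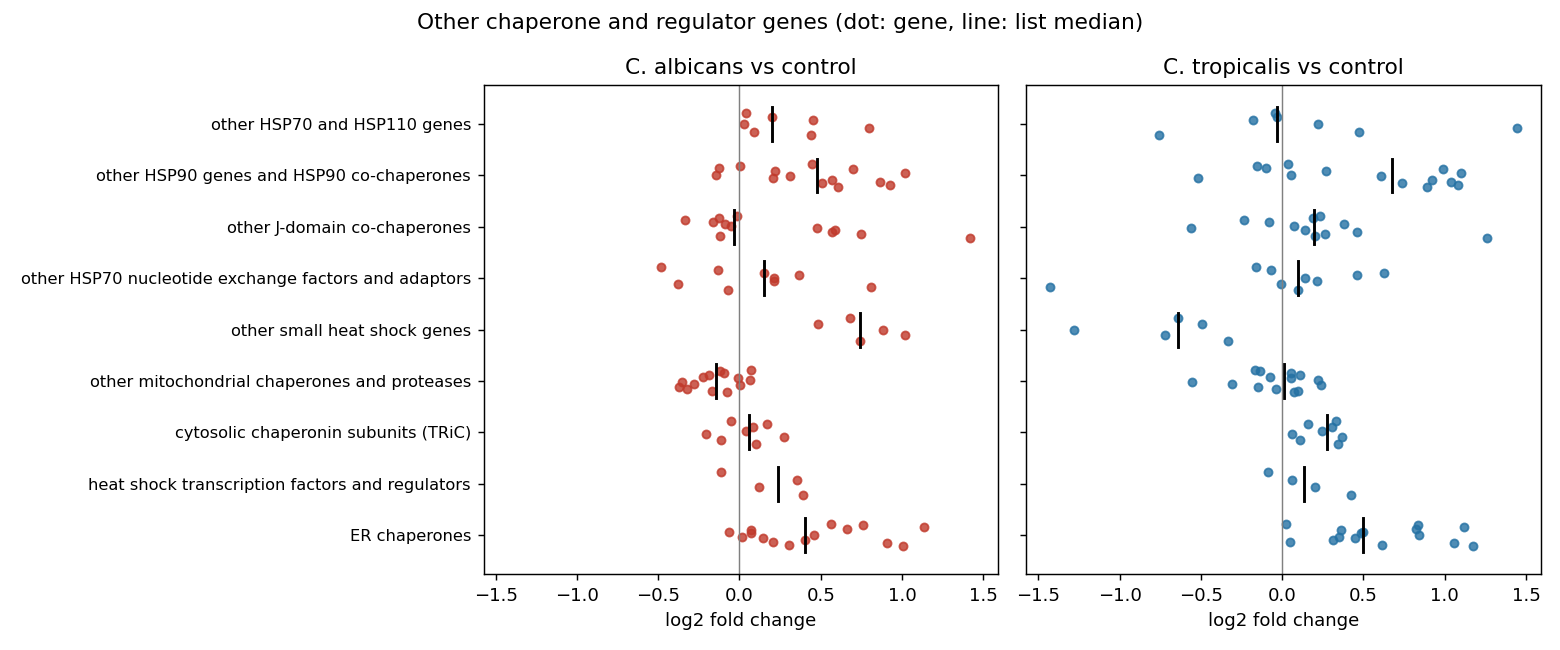
Log2 fold change over control of each tested gene (dot) of 9 chaperone and regulator lists, with the list median (line), for C. albicans (left) and C. tropicalis (right). The HSP90 and endoplasmic reticulum lists have medians between 0.40 and 0.68 in both panels, and the small heat shock genes lie above 0 in the left panel and below 0 in the right one.

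No regulator of the heat shock response passed. Hsf1, the factor that switches on the stress chaperones, was at 66.55, 70.03 and 78.72 CPM with C. albicans and 75.09 and 71.62 CPM with C. tropicalis, against 47.41, 44.5 and 72.39 CPM in control. The third control library reached the level of the yeast groups, and the estimates of log2 0.39 ± 0.19 SE and 0.42 ± 0.21 SE did not pass (adjusted p = 0.343 and 0.357, edgeR). Hsf4 gave 0.35 ± 0.24 SE and 0.06 ± 0.27 SE. Cirbp, an RNA-binding protein gene known to be induced by cold, was at 54.64, 51.71 and 65.79 CPM with C. albicans and 34.95 and 47.88 CPM with C. tropicalis, against 94.13, 70.47 and 108.3 CPM in control. All 5 libraries with yeast lay below control, and the estimates were log2 -0.67 ± 0.19 SE and -1.14 ± 0.22 SE (adjusted p = 0.229 and 0.135). Rbm3, also cold-induced, was at -0.13 ± 0.15 SE and -0.20 ± 0.17 SE.

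Some clock genes passed the test in the same comparisons, and their part in the chaperone results was not tested. The labels give neither the hour of collection nor the cage of a group, so effects of either cannot be told apart from those of the groups. Of 18 clock genes, 4 passed with C. albicans, against 0.0435% of all genes tested (7 genes). Per1, Per2 and Ciart rose (log2 1.31 ± 0.14, 2.09 ± 0.20 and 2.56 ± 0.26 SE) and Arntl fell (log2 -1.69 ± 0.14 SE, adjusted p = 0.00941 to 0.0222 for the 4, edgeR). Per2, a repressor gene of the core clock, also rose with C. tropicalis (log2 2.599 ± 0.22 SE, adjusted p = 0.0134). There 1 of the 18 passed, against 0.031% of all genes tested (5 genes). Per2 was at 143.3, 131.1 and 174.4 CPM with C. albicans and 258.9 and 167.3 CPM with C. tropicalis, against 35.07, 40.45 and 30.01 CPM in control. Of 20 immediate early genes, 17 lay above control with C. albicans and 9 with C. tropicalis, and 0 passed in edgeR. At an unadjusted p under 0.05, 9 were higher and 0 lower with C. albicans, beside 9.13% of all genes higher, and 3 were higher and 1 lower with C. tropicalis, beside 7.33% higher. Of the 19 with an adjusted p in DESeq2, it called 5 higher with C. albicans and 1 higher with C. tropicalis. Its shares over 14534 genes, in either direction, were 3.19% and 2.68%. The gene lower at the unadjusted p with C. tropicalis, named after its value was seen, was Egr1 (log2 -1.16 ± 0.42 SE, adjusted p = 0.272). Of these, Fosl1, an AP-1 subunit gene, was at log2 2.37 ± 0.43 SE and 1.04 ± 0.47 SE (adjusted p = 0.111 and 0.332), and Klf4, an epithelial differentiation factor, at 0.83 ± 0.17 SE and 0.60 ± 0.18 SE (0.129 and 0.236).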

How the data were processed

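Colon RNA was measured in 8 libraries made with the NEBNext Ultra kit, which does not mark strand, per the labels' protocols. The authors deposited 1 table of raw counts (whole numbers of reads per Ensembl identifier, not normalized). Per the submitters' processing notes, the tools were DESeq 1.18.0, HTSeq (given there as version 6.1) and TopHat2 2.0.12, on build mm10. Which annotation, strand option or filter they used is unstated: not given in the sources used here. Gene names, positions and exon lengths came from GENCODE M21 on the same build.

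Counts were tested in edgeR 4.0.16 (R 4.3.3) with TMM factors, filterByExpr, 1 quasi-likelihood fit of all 8 libraries and Benjamini-Hochberg adjustment over 16107 genes (threshold 0.05). SE is the log2 fold change over the square root of F. CPM use TMM-adjusted library sizes. A count of 0 allows 3 counts, or 0.152 to 0.185 CPM by library, for counting error only. No library pair of a group differed as little as sampling noise.

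Alternatives were DESeq2 1.42.0 (test, size factors), no filter, a filter of 1 CPM in 3 libraries, only the 2 groups compared, a replicate block, a smooth muscle covariate, each library left out and, added after seeing the data, a covariate for the Hsp90aa1 library split. The members and lists were chosen with earlier results of these data known. Named genes are all members, every list gene past the threshold, and otherwise the 2 of a list with the smallest p. The last are given for the lists that bear on the chaperones. For the J-domain, exchange factor and TRiC lists the second gene (Dnajb2, Hspbp1 and Cct3) was left out. The 5 genes most like the members' mean level were ranked by Pearson correlation. Symbols of promoters were matched to RefSeq. Figures were drawn with matplotlib 3.10.9.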

Additional observations from a re-analysis of the deposited data

Results flagged for a closer look

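Hspb1 lay on opposite sides of the control mean with the 2 yeasts: both C. tropicalis libraries (115.7 and 118.4 CPM) lay below the control mean of 321.3 CPM, and all 3 C. albicans libraries (399.4, 650.3 and 436.5 CPM) lay above it. Control library 2, at 465.2 CPM, was above C. albicans libraries 1 and 3, so only the C. tropicalis libraries were separate from control. The difference itself, C. tropicalis over C. albicans, was log2 -2.08 ± 0.35 SE and did not pass in edgeR (adjusted p = 0.0646). Over the alternatives its adjusted p ran between 1.29e-07 (DESeq2) and 0.767 (smooth muscle covariate), and the log2 difference between -2.34 and -1.13. Between the yeasts, all 13 smooth muscle markers (median log2 -1.79), all 14 enteric neuron and glia markers (-1.51), all 6 fibroblast markers (-0.62) and all 4 tested adipocyte markers (-2.65) had estimates below 0, beside a median of 0.04 over all genes. In edgeR 0 of them passed. At an unadjusted p under 0.05, 13, 13, 4 and 2 were lower, in the order of the lists just given. DESeq2 called 13, 11, 2 and 1 in that order. Over all 16107 genes tested, 2321 were lower at that unadjusted p in edgeR. DESeq2 called 10.9% of 16025 genes in either direction. The part of these cell types in the difference was not tested. The smooth muscle score used as covariate was -1.245 and -0.9 with C. tropicalis, and -0.011, 1.42 and 0.67 with C. albicans. As the score did not overlap between the yeasts, that fit cannot separate it from the yeast.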

How the results depend on the processing

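Over all 40 results of a member in a comparison, 541 of 630 values under an alternative kept their direction and their side of the threshold, 31 lost a call, 44 gained one and 14 changed sign. Most of the 40 were not called in the main fit, so keeping their side mostly meant staying uncalled. The called results kept their call less often. Hsph1 kept it in 10 of 16 alternatives with C. albicans and 8 of 15 for both yeasts. Hspa8 kept it in 6 of 16 with C. tropicalis and 7 of 15 for both yeasts.

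With no filter on low counts, genes called were 119 for C. albicans, 71 for C. tropicalis, 1127 for C. tropicalis against C. albicans and 59 for both yeasts, members called were 5, 2, 3 and 5, and other chaperone genes 5, 6, 7 and 8. DESeq2 called 464, 389, 1753 and 303 genes, 6, 5, 3 and 6 members, and 13, 16, 9 and 17 other chaperone genes. A fit of only the 2 groups compared called 3 members for C. albicans, 0 genes and 0 members for C. tropicalis, and 858 genes, 1 member and 3 other chaperone genes between the yeasts. The smooth muscle covariate gave 11 genes for C. albicans, 0 genes and 0 members for C. tropicalis, and 44 genes with 5 other chaperone genes for both yeasts. The library split covariate gave 0 members in all 4 comparisons, 0 genes for C. tropicalis and 4 genes for both yeasts.

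Whether the replicate numbers pair the libraries could not be decided. Deviations from the group mean correlated at -0.392 to 0.156 between libraries of the same number and at -0.295 to 0.362 between others. With 2 or 3 libraries per group these deviations are tied to each other. The replicate block called 0 genes and 0 members for C. albicans, for C. tropicalis and for both yeasts.

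The Hspa1a and Hspa1b sum passed with no filter for C. albicans (log2 3.34, adjusted p = 0.000849), between the yeasts (-1.87, 0.0203) and for both (2.40, 0.00606), with DESeq2 (3.35, -1.88 and 2.41, at 3.27e-07, 0.0204 and 0.000158), and for C. albicans in the 2-group fit (3.33, 0.026). Leaving out 1 library gave 2.95 to 3.58 for C. albicans, 0.26 to 2.11 for C. tropicalis, -3.07 to -1.23 between the yeasts and 1.80 to 2.72 for both. It left 0 to 5, 0 to 3, 0 to 1 and 0 to 2 members called, 0 to 254, 0 to 192, 0 to 1315 and 0 to 31 genes, and 0 to 9, 0 to 3, 0 to 7 and 0 other chaperone genes, in the same order of comparisons.

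Signs changed for Hsp90aa1 with C. albicans under the block (-0.14) and the muscle covariate (-2.60), and its values without 1 library ran between -2.90 (without C. albicans library 2) and 0.96, below 0 also without control library 1 (-0.18). For both yeasts they ran between -0.44 (without C. albicans library 2) and 1.71. Between the yeasts, leaving out 1 library gave -0.064 to 0.20 for Hspd1 (below 0 without C. albicans library 1 or C. tropicalis library 2), -0.26 to 0.16 for Hspe1 (above 0 without C. albicans library 2 or 3 or C. tropicalis library 1) and -0.68 to 0.032 for Hsph1 (above 0 without C. tropicalis library 2). The muscle covariate turned Hspe1 to 0.76 and Hsph1 to 0.62, and the split covariate Hspe1 to 0.026. The causes were not tested. A lone C. tropicalis library was taken to have the spread of the other groups.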

Other observations

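The genes whose log2 level across the 8 libraries was most like the mean of the 10 members, among 13300 ranked, were Stim2, Rtn4rl2, Tmem65, Phc2 and Gprc5a (Pearson r of 0.957 to 0.968, given as a description of libraries that share groups and the Hsp90aa1 split). None of the 5 passed in any comparison. Gprc5a, an epithelial receptor gene, was at 336.1, 623.3 and 435.7 CPM with C. albicans and 388.4 and 274.7 CPM with C. tropicalis, against 160.9, 242.6 and 123 CPM in control. With Hsp90aa1 left out of the mean, a choice made after seeing the data, the 5 became C2cd4a, Ccdc71l, Cd177, Dusp8 and Epha2 (r of 0.966 to 0.986). Of these, C2cd4a rose with C. albicans: it was at 39.52, 63.99 and 43.29 CPM there and 31.18 and 17.39 CPM with C. tropicalis, against 5.14, 7.63 and 4.84 CPM in control (log2 3.06 ± 0.30 SE for C. albicans, adjusted p = 0.015, edgeR).

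B cell markers also varied within groups, with summed levels of 63.91, 11.39 and 51.77 CPM with C. albicans and 67.38 and 94.57 CPM with C. tropicalis, against 17.31, 237.1 and 278.7 CPM in control.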
